A study of Mus musculus with 8 samples.

Results

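The gene set described here holds 9 cytochromes of the *Cyp2j*, *Cyp2u*, *Cyp4f* and *Cyp4v* groups of arachidonate metabolism, measured in male mouse liver, and *Ephx2*. It is a chosen list and leaves out 2 relatives that were also tested, *Cyp4f16* and *Cyp4f18*, whose values are given further on. Its 10 members (*Cyp2j5*, *Cyp2j6*, *Cyp2j9*, *Cyp2u1*, *Cyp4f13*, *Cyp4f14*, *Cyp4f15*, *Cyp4f17*, *Cyp4v3* and *Ephx2*) were taken by symbol from 24940 genes in the count table, and all 10 were among the 12340 genes that passed the expression filter. Poly(A) RNA was sequenced from whole livers of C57BL/6 males, 4 FXRKO and 4 BCL6LKOFXRKO. FXRKO mice carried floxed *Bcl6* (Bcl6 fl/fl) and were homozygous for a whole-body deletion of FXR, the bile acid receptor encoded by *Nr1h4*. BCL6LKOFXRKO mice were the same with Alb-Cre added, in which the Albumin promoter drives Cre recombinase so that floxed *Bcl6*, the gene of a transcriptional repressor, is deleted in hepatocytes. Both groups therefore lacked FXR and both carried the floxed alleles, and the comparison asks what the loss of hepatocyte BCL6 adds in the absence of FXR. Only BCL6LKOFXRKO mice carried Cre, so an effect of Cre itself cannot be told apart from the loss of BCL6. The study reported higher serum and liver bile acids, serum bilirubin and liver collagen in such males than in FXRKO males. The part of this liver damage in the values given here was not tested. The age of the mice and whether they were fed or briefly fasted when these livers were taken are not given in the sources used here, and livers with intact FXR were not analysed here.

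Arachidonic acid is an unsaturated fatty acid that is held in membrane phospholipids, released by phospholipases and oxidised along separate routes. Cyclooxygenases start the prostaglandins, lipoxygenases start the leukotrienes, and cytochromes P450 either insert an epoxide, giving the epoxyeicosatrienoic acids (EETs), or hydroxylate the end of the chain, giving hydroxyeicosatetraenoic acids such as 20-HETE. Cyp2j enzymes are known mainly as epoxygenases, Cyp4f enzymes as omega-hydroxylases of fatty acids, leukotriene B4 and vitamin E side chains, and the soluble epoxide hydrolase encoded by *Ephx2* turns EETs into diols.

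In livers without FXR, the further loss of hepatocyte *Bcl6* was accompanied by lower RNA of nearly the whole set. Of the 10 members, 9 were lower in BCL6LKOFXRKO than in FXRKO livers and none was higher, with all 10 log2 fold changes below 0 (edgeR's quasi-likelihood test, adjusted p under 0.05 with Benjamini-Hochberg adjustment over all tested genes). Over all 12340 tested genes, 13.5% were called lower and 16.2% higher by the same rule. The members were chosen with earlier results of these data known, so this contrast is not that of an unselected family. The 2 tested relatives left off the list, *Cyp4f16* and *Cyp4f18*, were both called higher with overlapping groups (log2 fold changes 0.92 and 1.32). The falls ran from *Cyp2u1*, with a mean of 4.81 CPM (the count of a gene relative to its TMM-scaled library) in FXRKO and 0.905 CPM in BCL6LKOFXRKO livers, to *Cyp2j6*, with 88.5 and 70.3 CPM. *Cyp4f17*, at 9.51 and 8.02 CPM, was the member not called. In the same 9 members the 4 values of one genotype did not overlap the 4 of the other, against 15.2% of all tested genes that were lower without overlap. The median log2 fold change was -0.82 over the 10 members and 0.01 over all tested genes. In 7 members the log2 fold change was under -0.5, which 9.84% of all tested genes reached as called falls.

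**Figure D1:**
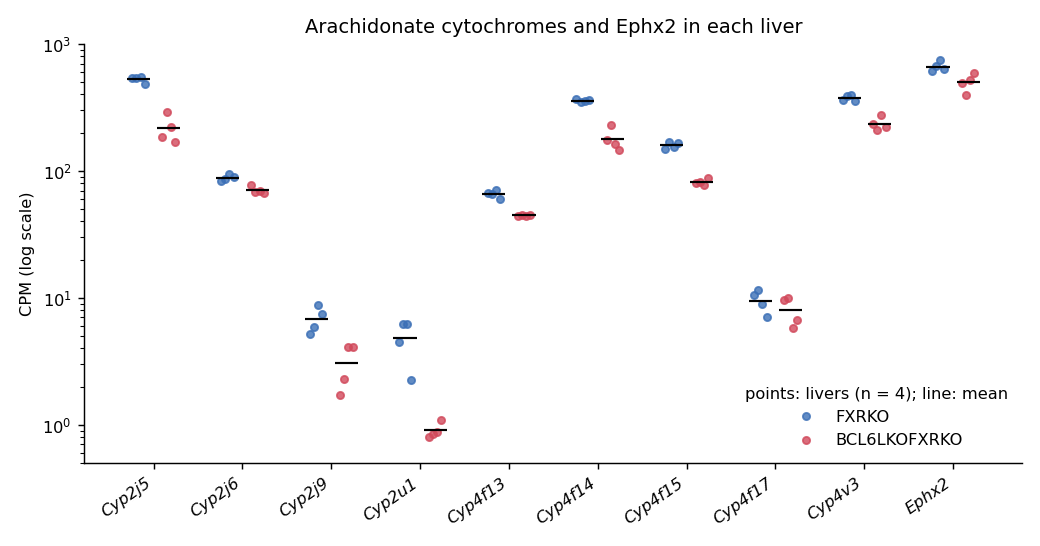
CPM of each member in each liver on a log axis, with FXRKO livers in blue, BCL6LKOFXRKO livers in red and a line at the mean of the 4 livers. The red points sit below all blue points in 9 of the 10 genes, and in *Cyp4f17* the values of the 2 genotypes overlap, from 7.0 to 11.6 CPM in FXRKO and from 5.75 to 9.95 CPM in BCL6LKOFXRKO.

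The libraries held between 7586241 and 11839503 counts, and the first principal component of log2 CPM held 71.7% of the variance. *Bcl6* was at 56.3, 65.2, 21.2 and 55.6 CPM in FXRKO livers 1 to 4 and at 11.9, 4.61, 5.55 and 7.72 CPM in BCL6LKOFXRKO livers 1 to 4 (log2 fold change -2.72, standard error (SE) 0.40, adjusted p = 0.00123 from edgeR). FXRKO liver 3 had the least *Bcl6* of its group. In the same liver 6 members (*Cyp2j5*, *Cyp2j6*, *Cyp2j9*, *Cyp4f13*, *Cyp4v3* and *Ephx2*) had their highest value of all 8 livers, and *Cyp2u1*, *Cyp4f14*, *Cyp4f15* and *Cyp4f17* did not. This is 1 liver, and the share of all tested genes with their highest value in it was not counted. A relation between *Bcl6* and the members within a genotype was not tested. Reads on *Nr1h4* came to 60 ± 2.46 CPM (SD, n = 4) in FXRKO and 43.5 ± 3.69 CPM (SD, n = 4) in BCL6LKOFXRKO livers, and the deleted part of the gene is not given in the sources used here. Liver numbers are names only and do not pair livers, and p-values set the difference between genotypes against the spread between these livers. *Alb* alone took between 4.04% and 5.16% of the counts in FXRKO livers and between 11.9% and 13.2% in BCL6LKOFXRKO livers. Scaling by total counts in place of the TMM factors moved all log2 fold changes by a median of -0.16 and changed the split of calls from 1994 higher and 1665 lower to 1404 higher and 2949 lower. Since that shift is itself downward, the negative signs of the members under it carry no further information, and the values given here are on the TMM scale.

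The cytochromes of the set share the cysteine that holds the heme iron, and the stretch around its codon shows how alike the sequences are that a read has to tell apart. In the 60 bases below, from the GENCODE M21 transcripts (GRCm38) and written from the gene's own strand, the cysteine codon is in capitals.
*Cyp2j5*: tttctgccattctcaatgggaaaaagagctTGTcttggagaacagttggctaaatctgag
*Cyp2j6*: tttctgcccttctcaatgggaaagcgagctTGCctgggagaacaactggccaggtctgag
*Cyp2j9*: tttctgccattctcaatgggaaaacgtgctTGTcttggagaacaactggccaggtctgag
*Cyp2u1*: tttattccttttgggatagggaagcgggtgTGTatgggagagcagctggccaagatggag
*Cyp4f13*: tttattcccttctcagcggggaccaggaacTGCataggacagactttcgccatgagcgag
*Cyp4f14*: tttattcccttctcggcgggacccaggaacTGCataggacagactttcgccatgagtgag
*Cyp4f15*: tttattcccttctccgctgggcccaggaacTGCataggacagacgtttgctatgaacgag
*Cyp4f17*: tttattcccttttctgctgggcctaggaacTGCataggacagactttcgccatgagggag
*Cyp4v3*: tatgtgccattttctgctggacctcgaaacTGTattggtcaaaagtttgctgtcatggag
Within this stretch, *Cyp2j6* and *Cyp2j9* differed at 5 of 60 bases and *Cyp4f13* and *Cyp4f14* at 4. Over the whole coding sequence, identity was 78.3% to 82.6% between the 3 Cyp2j members and 74.3% to 84.1% between the 4 Cyp4f members. Reads were 100 bases long and kept only with 1 location, and in 7 members no window of 100 transcript bases was identical to one in another gene's transcript. Such windows made up 10.4% of *Cyp2u1* (shared with 4930534D22Rik), 5.77% of *Cyp4v3* (Gm45753) and 0.125% of *Cyp4f17* (*Cyp4f16*). No other gene in the count table overlapped the span of any member. The counting is not stated to use strand, so reads of an antisense or overlapping transcript would be counted with *Cyp2u1* and *Cyp4v3*.

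The Cyp2j genes lie in 1 cluster of 7 genes on chromosome 4 (mm10, 96042660 to 96664119), of which 3 are members. *Cyp2j5*, an epoxygenase abundant in liver and kidney (NM_010007, minus strand, 96627432 to 96664119), was at 540.2, 543, 549 and 481 CPM in FXRKO livers 1 to 4. In BCL6LKOFXRKO livers 1 to 4 it was at 185, 294, 221 and 168 CPM. The groups were far apart, with BCL6LKOFXRKO liver 2 the highest of its group. The mean was 41.1% of that in FXRKO livers (log2 fold change -1.28, SE 0.16, adjusted p = 7.52e-05 from edgeR). *Cyp2j9*, known as a hydroxylase of arachidonate in brain (NM_028979, minus strand, 96568429 to 96591485), was a low gene with 47 to 81 counts in FXRKO and 17 to 45 counts in BCL6LKOFXRKO livers. It was at 5.20, 5.87, 8.71 and 7.47 CPM in FXRKO livers and at 1.71, 2.31, 4.09 and 4.09 CPM in BCL6LKOFXRKO livers, a wide spread in both groups without overlap. Its log2 fold change was -1.15 (SE 0.28, adjusted p = 0.00877 from edgeR). *Cyp2j6*, a relative of *Cyp2j5* (NM_010008, minus strand, 96516138 to 96553651), changed least of the 3. It was at 82.8, 86.7, 95.2 and 89.0 CPM in FXRKO livers and at 77.9, 67.8, 68.9 and 66.7 CPM in BCL6LKOFXRKO livers, of which liver 1 came nearest to the FXRKO range. Its log2 fold change was -0.33 (SE 0.10, adjusted p = 0.0267 from edgeR). That call was lost without FXRKO liver 2, 3 or 4 (adjusted p = 0.0538, 0.0810 and 0.0593 from edgeR) and without BCL6LKOFXRKO liver 2 or 3 (adjusted p = 0.0512 and 0.0584), while the log2 fold change stayed between -0.38 and -0.30 with any 1 liver left out.

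*Cyp2u1*, a hydroxylase of long-chain fatty acids that stands alone in its subfamily (NM_027816, chromosome 3, minus strand, 131290491 to 131303227), had the largest fall of the set and the fewest reads. It had 43, 50, 58 and 24 counts in FXRKO livers 1 to 4 and 8, 7, 9 and 12 counts in BCL6LKOFXRKO livers 1 to 4. On the CPM scale the FXRKO livers were at 4.47, 6.25, 6.23 and 2.27 and the BCL6LKOFXRKO livers at 0.806, 0.849, 0.877 and 1.09. FXRKO liver 4 was less than the other FXRKO livers but above every BCL6LKOFXRKO liver. The log2 fold change was -2.37 (SE 0.35, adjusted p = 0.000278 from edgeR), with a 95% confidence interval from -3.13 to -1.62.

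Of the 10 Cyp4f genes in the table, 9 lie in a cluster on chromosome 17 (mm10, 32452723 to 32965716), which holds the 4 Cyp4f members. Of these, 3 fell and *Cyp4f17* was not called. *Cyp4f14*, the omega-hydroxylase of leukotriene B4 in mouse liver (NM_022434, minus strand, 32905070 to 32917087), was at 369, 348, 356 and 361 CPM in FXRKO livers. In BCL6LKOFXRKO livers it was at 174, 230.0, 162 and 147 CPM, again with liver 2 the highest, as for *Cyp2j5*. The FXRKO livers were nearly alike (coefficient of variation 2.48%) and the BCL6LKOFXRKO livers less so (20.4%). The mean fell to 49.7% of the FXRKO mean (log2 fold change -1.01, SE 0.14, adjusted p = 0.000144 from edgeR).

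*Cyp4f15*, a related omega-hydroxylase (NM_001346538, plus strand, 32685631 to 32703352), was at 149, 169, 154 and 165 CPM in FXRKO livers and at 79.7, 81.7, 77.9 and 87.7 CPM in BCL6LKOFXRKO livers. Both groups were tight, and the fall was the one with the smallest adjusted p of the set (log2 fold change -0.96, SE 0.10, adjusted p = 1.50e-05 from edgeR). *Cyp4f13*, whose substrates are less well described (NM_130882, minus strand, 32924688 to 32947361), was at 66.4, 66.2, 70.5 and 60.4 CPM in FXRKO livers and at 44.1, 45.1, 44.5 and 44.6 CPM in BCL6LKOFXRKO livers, which were almost equal to one another. Its log2 fold change was -0.56 (SE 0.10, adjusted p = 0.000916 from edgeR). *Cyp4f17* (NM_001101445, plus strand, 32506462 to 32528894) was at 10.5, 11.6, 8.92 and 7.0 CPM in FXRKO livers and at 9.67, 9.95, 5.75 and 6.72 CPM in BCL6LKOFXRKO livers. These ranges overlapped, and the log2 fold change of -0.25 (SE 0.22, adjusted p = 0.421 from edgeR) had a 95% confidence interval from -0.72 to 0.22, which includes the fall of *Cyp4f13*, at 59 to 101 counts per liver.

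**Figure D2:**
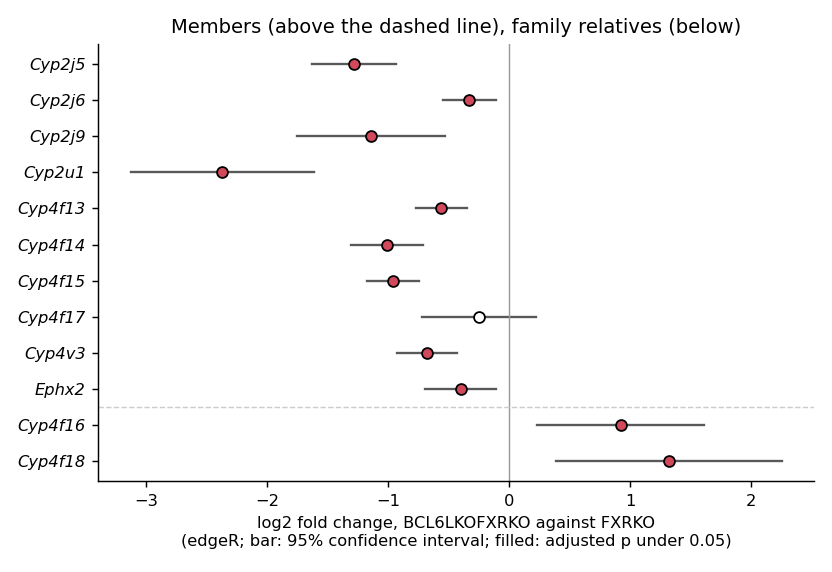
Log2 fold change of BCL6LKOFXRKO against FXRKO livers (x axis) for the 10 members above the dashed line and the 2 tested relatives below it, with 95% confidence intervals from edgeR and filled points at an adjusted p under 0.05. The 10 members lie between -2.37 and -0.25, and *Cyp4f16* and *Cyp4f18* lie at 0.92 and 1.32.

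For *Cyp4f13*, *Cyp4f14* and *Cyp4f15*, the 3 Cyp4f members called lower, the 250 bases before their starts are shown to let the sequences be compared. A shared control of these genes was not tested. The bases are from RefSeq (GRCm38.p6) and written from the gene's own strand. They are chr17:32947362-32947611 for *Cyp4f13* (minus strand), chr17:32917330-32917579 for *Cyp4f14* (minus strand) and chr17:32685409-32685658 for *Cyp4f15* (plus strand). Capitals mark ATTGG, which is CCAAT on the other strand, and the match to TTCNNNGAA in *Cyp4f13*.
*Cyp4f13*: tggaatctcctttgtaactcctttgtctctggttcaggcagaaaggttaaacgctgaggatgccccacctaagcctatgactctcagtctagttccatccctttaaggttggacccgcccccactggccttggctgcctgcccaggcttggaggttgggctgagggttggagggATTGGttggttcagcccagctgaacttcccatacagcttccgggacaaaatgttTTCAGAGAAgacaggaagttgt
*Cyp4f14*: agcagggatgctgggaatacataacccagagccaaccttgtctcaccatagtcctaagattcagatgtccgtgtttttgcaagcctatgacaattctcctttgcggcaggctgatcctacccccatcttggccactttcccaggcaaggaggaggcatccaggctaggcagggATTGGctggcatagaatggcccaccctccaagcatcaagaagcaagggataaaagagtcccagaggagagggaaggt
*Cyp4f15*: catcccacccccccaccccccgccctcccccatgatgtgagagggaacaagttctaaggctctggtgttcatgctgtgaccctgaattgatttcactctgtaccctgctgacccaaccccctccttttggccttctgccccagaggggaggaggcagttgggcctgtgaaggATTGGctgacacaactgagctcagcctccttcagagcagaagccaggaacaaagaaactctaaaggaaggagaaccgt
Promoters of 7 of the 10 members were in the RefSeq table, without *Cyp2u1*, *Cyp4f17* and *Ephx2*. In the 3 sequences printed, the first base of ATTGG lay 76, 77 and 78 bases before the start, a position that was compared only after the sequences had been seen. RefSeq gives 4 starts for *Cyp4f14*. The one printed is the third from upstream, whose match lies nearest in position to those of *Cyp4f13* and *Cyp4f15*. The near equality of the 3 positions therefore depends on the start that was printed and is no result. The first 2 starts hold the same match 50 and 64 bases before them. The fourth, where the counted transcript begins, has CCAAT in the forward direction 24 bases before it. CCAAT, searched on both strands, was in 4 of the 7 members, *Cyp2j6* being the fourth, and in 37.5% of 27025 genes with a promoter entry of the same length. TTCNNNGAA was in 1 of the 7 members against 8.13% of genes. TATAAA, also searched on both strands, was in 1 of the 7 (*Cyp2j5*) against 14.3% of genes. These are matches of letters only.

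*Cyp4v3*, the mouse counterpart of the fatty acid omega-hydroxylase that is mutated in the eye disease Bietti crystalline dystrophy (NM_133969, chromosome 8, minus strand, 45305802 to 45333196), was at 359, 386, 397 and 357 CPM in FXRKO livers. It was at 232, 209.7, 274 and 220.3 CPM in BCL6LKOFXRKO livers, where liver 3 was the highest, and the groups did not overlap. The log2 fold change was -0.68 (SE 0.12, adjusted p = 0.000782 from edgeR).

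*Ephx2*, the soluble epoxide hydrolase and the one member that is not a cytochrome (NM_001271402, chromosome 14, minus strand, 66084372 to 66124522), was at 608, 669, 745 and 633 CPM in FXRKO livers. It was at 493, 396, 524 and 595 CPM in BCL6LKOFXRKO livers. BCL6LKOFXRKO liver 4 came close to FXRKO liver 1, and liver 2, the highest for *Cyp2j5* and *Cyp4f14*, was the lowest for *Ephx2*. The log2 fold change was -0.40 (SE 0.14, adjusted p = 0.0410 from edgeR). The call was lost without FXRKO liver 2, 3 or 4 (adjusted p = 0.0859, 0.114 and 0.0649 from edgeR), without BCL6LKOFXRKO liver 1, 2 or 3 (adjusted p = 0.0923, 0.0731 and 0.0620) and with a minimum of 10 counts in every liver (adjusted p = 0.0517). The log2 fold change stayed between -0.49 and -0.32 with any 1 liver left out.

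**Figure D3:**
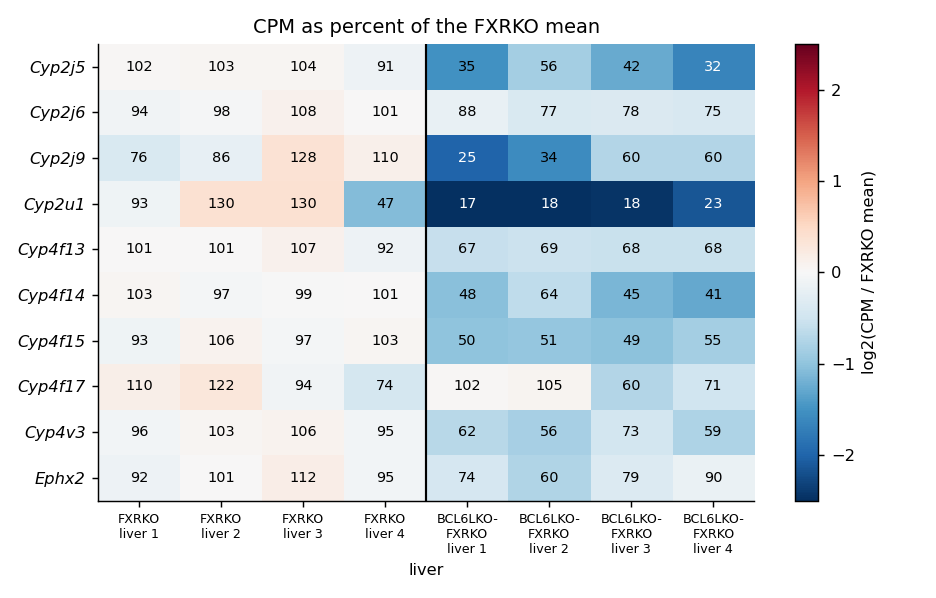
CPM of each member (rows) in each liver (columns) as a percent of the mean of the 4 FXRKO livers, printed in each cell and coloured on a log2 scale. In the BCL6LKOFXRKO columns *Cyp2u1* is lowest, from 16.8% to 22.7%, and *Cyp4f17* reaches 102% and 105% in livers 1 and 2.

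Set against the FXRKO means, BCL6LKOFXRKO livers 3 and 4 had all 10 members below 100%, and livers 1 and 2 had 9, the exception being *Cyp4f17* at 102% and 105%. The median over the 10 members was close in the 4 livers, at 56.0%, 57.9%, 60.2% and 59.4%. Single members still ranked the livers differently. *Cyp2j5* was lowest in liver 4 (31.8%) and highest in liver 2 (55.6%), *Cyp2j9* lowest in liver 1 (25.1%), and *Ephx2* lowest in liver 2 (59.8%) and highest in liver 4 (89.6%). After each genotype was centred on its mean, Pearson's r over the 8 livers ranged from -0.91 (*Cyp4f14* with *Ephx2*) to 0.88 (*Cyp2u1* with *Cyp4f13*) over the 45 pairs of members, with a median of 0.08 and 25 pairs above 0. The next most extreme pairs were *Cyp2j5* with *Cyp4f14* (r = 0.86) and *Cyp2j9* with *Cyp4f17* (r = -0.83). These correlations are descriptions over 8 livers that share their library scaling.

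Ratios of 2 members in the same liver do not depend on the scaling between libraries. The 6 ratios were compared with an exact two-sided permutation test over the 70 orderings of the livers, which cannot give a p under 0.0286. The ratio of *Cyp2j6* to *Cyp2j5* rose from a mean log2 of -2.58 ± 0.12 (SD, n = 4) to -1.59 ± 0.39 (SD, n = 4), a difference of 0.98 without overlap (exact permutation p = 0.0286, adjusted over the 6 ratios 0.0857). The ratio of *Cyp4f17* to *Cyp4f14* went from -5.25 ± 0.33 (SD, n = 4) to -4.48 ± 0.27 (SD, n = 4), also without overlap (exact permutation p = 0.0286, adjusted 0.0857). *Ephx2* to *Cyp2j5* differed by 0.90 and *Cyp4f13* to *Cyp4f14* by 0.47 (each exact permutation p = 0.0571, adjusted 0.0857), and in both BCL6LKOFXRKO liver 2 fell within the FXRKO range. *Cyp2j9* to *Cyp2j5* (0.10, exact permutation p = 0.83) and *Cyp4f15* to *Cyp4f14* (0.07, exact permutation p = 0.714) differed by less than the spread between livers. No ratio passed after adjustment, but with 4 livers a group even a completely separated ratio could pass only if at least 4 of the 6 separated completely, so the adjusted values do not bear on whether neighbouring genes fell by different amounts. The 95% confidence intervals of the log2 fold changes from edgeR ran from -1.63 to -0.94 for *Cyp2j5* and from -0.55 to -0.11 for *Cyp2j6*.

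**Figure D4:**
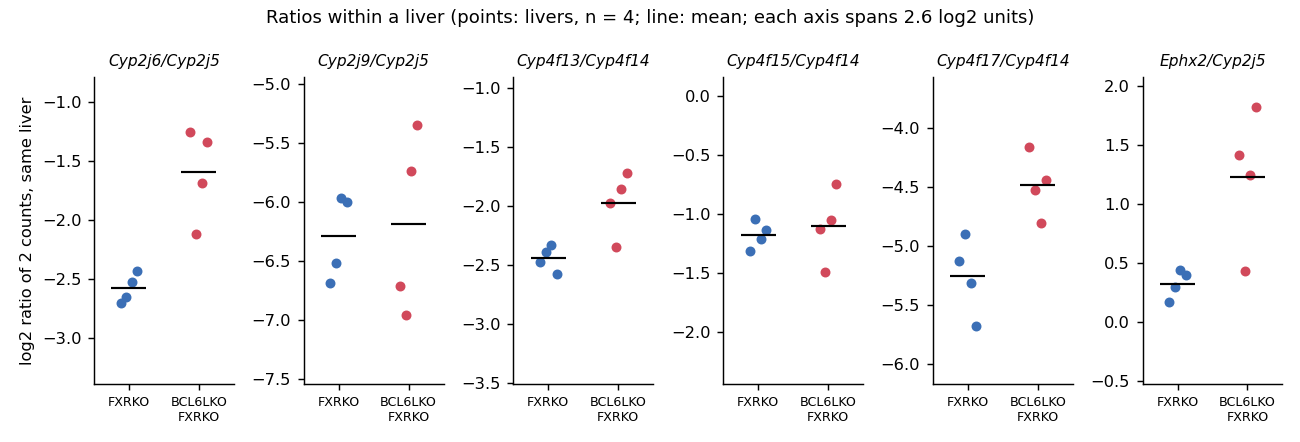
Log2 ratio of the counts of 2 members in the same liver (y axes, each of the same span) for 6 ratios, with a point for each of 4 livers per genotype and a line at the mean. The points do not overlap for *Cyp2j6*/*Cyp2j5* and *Cyp4f17*/*Cyp4f14*, where the means differ by 0.98 and 0.77.

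Levels of different genes were compared per length, as RPKM (CPM divided by the deposited transcript length in kilobases). In FXRKO livers *Ephx2* was the highest, at 313 ± 28.2 RPKM (SD, n = 4), followed by *Cyp4f14* (163 ± 4.05), *Cyp2j5* (145 ± 8.77), *Cyp4v3* (128 ± 6.79), *Cyp4f15* (74.8 ± 4.51), *Cyp4f13* (38.8 ± 2.46), *Cyp2j6* (24.7 ± 1.45), *Cyp4f17* (5.67 ± 1.2), *Cyp2j9* (3.53 ± 0.82) and *Cyp2u1* (2.07 ± 0.81). The neighbours *Cyp2j5* and *Cyp4v3*, and *Cyp4f17* and *Cyp2j9*, overlapped in their ranges over the livers. In BCL6LKOFXRKO livers *Ephx2* (237 ± 38.7 RPKM, SD, n = 4) and *Cyp4f14* (81.2 ± 16.5) again came first, but *Cyp4v3* (80.2 ± 9.61) stood before *Cyp2j5* (59.6 ± 15.3). Here the ranges of *Cyp4f14* and *Cyp4v3*, and of *Cyp4v3* and *Cyp2j5*, overlapped, and the order of the 6 lower genes was as in FXRKO livers. The deposited lengths of *Cyp2j5* and *Cyp4v3* are 3640 and 2917 bases, while their GENCODE M21 transcripts, matched by RefSeq ID, have 2345 and 3808. The order among *Cyp4f14*, *Cyp2j5* and *Cyp4v3*, its change between genotypes and the sums of RPKM therefore depend on the lengths used. The 9 cytochromes summed to between 565 and 602 RPKM in FXRKO and between 281 and 349 RPKM in BCL6LKOFXRKO livers. *Ephx2* RPKM divided by that sum was 0.491 to 0.583 in FXRKO and 0.536 to 0.996 in BCL6LKOFXRKO livers, ranges that overlapped.

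Of the 10 other genes of these groups, 2 could be tested, *Cyp4f16* and *Cyp4f18*, and both were called higher, with groups that overlapped and calls that were lost in several alternatives. No other Cyp2j gene could be tested. Among these 10 other Cyp2j, Cyp2u, Cyp4f and Cyp4v genes, 7 had at most 3 counts in every liver (*Cyp2j8*, *Cyp2j11*, *Cyp2j12*, *Cyp2j13*, *Cyp4f37*, *Cyp4f40* and *Cyp4f41-ps*), 3 of them 0 counts in all livers. A library's 3 counts correspond to between 0.272 and 0.374 CPM, which covers counting error only. *Cyp4f39* had between 1 and 14 counts and was not tested. *Cyp4f18*, which inactivates leukotriene B4 in neutrophils and lies apart on chromosome 8 (NM_024444, 71988482 to 72009626), was at 1.04, 0.375, 0.967 and 0.284 CPM in FXRKO livers and at 1.01, 2.43, 1.66 and 1.72 CPM in BCL6LKOFXRKO livers, with 3 to 20 counts per liver. Its log2 fold change was 1.32 (SE 0.43, adjusted p = 0.0352 from edgeR), and BCL6LKOFXRKO liver 1 lay within the FXRKO range. The adjusted p without 1 liver ranged from 0.0269 to 0.103, and the call was lost without FXRKO liver 2 or 4 (0.0957 and 0.103) or BCL6LKOFXRKO liver 2, 3 or 4 (0.0891, 0.0593 and 0.0630). *Cyp4f16*, beside *Cyp4f17* on chromosome 17 (NM_024442, 32536557 to 32551798), was at 5.52, 2.25, 1.94 and 4.45 CPM in FXRKO livers and at 5.24, 6.07, 6.14 and 9.53 CPM in BCL6LKOFXRKO livers. Its log2 fold change was 0.92 (SE 0.32, adjusted p = 0.0448 from edgeR) with overlapping groups. The call was lost without FXRKO liver 2, 3 or 4 (adjusted p = 0.117, 0.116 and 0.0522 from edgeR) or BCL6LKOFXRKO liver 2, 3 or 4 (adjusted p = 0.0561, 0.0620 and 0.129) and when scaled by total counts (adjusted p = 0.0748). Summed neutrophil markers were 5.16 to 13.2 CPM in FXRKO and 14.5 to 28.2 CPM in BCL6LKOFXRKO livers, with *S100a9* and *Csf3r* called higher and *Ly6g* at no more than 3 counts in any liver, and their part in the *Cyp4f18* values was not tested.

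Because these are whole livers, fewer hepatocytes and less RNA per hepatocyte cannot be told apart. Of the 7 hepatocyte markers in the table, *Alb* and *Ahsg* were higher, *Ttr*, *Serpina1c* and *Apob* lower and 2 were not called, with a median log2 fold change of -0.24. Their summed level was 71172 to 81389 CPM in FXRKO and 159297 to 185961 CPM in BCL6LKOFXRKO livers. That sum follows *Alb*, which alone took 4.04% to 5.16% of the counts in FXRKO and 11.9% to 13.2% in BCL6LKOFXRKO livers. It is therefore no measure of hepatocyte content. Markers of other cells were called higher in unequal shares, against 16.2% of all tested genes. Among the tested markers, 4 of 6 of cholangiocytes (summed 42.2 to 67.3 against 94.1 to 196 CPM), 5 of 8 of stellate cells and fibroblasts (205 to 287 against 412 to 523 CPM), 3 of 7 of macrophages and monocytes (252 to 341 against 340.1 to 513 CPM) and 1 of 8 of sinusoidal endothelium (184 to 249 against 236 to 309 CPM) were called higher, and none lower by edgeR, DESeq2 or limma voom (1, *Sox9*, was lower at an unadjusted p under 0.05 in edgeR). None of the 7 T and B cell markers in the table passed the expression filter, with summed levels of 2.6 to 5.05 and 4.53 to 9.17 CPM. Their part in the falls of the set was not tested.

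The other genes of arachidonate metabolism were read from 6 lists with 74 genes, of which 73 were in the table and 50 were tested. Of these 50, 18 were lower and 11 higher, beside 13.5% lower and 16.2% higher among all tested genes. The 16 other arachidonate cytochromes resembled the set most in direction, with 11 of the 18 lower genes, 1 higher gene and a median log2 fold change of -1.08. *Cyp2c50* and *Cyp2c38*, of the epoxygenase subfamily Cyp2c, fell with log2 fold changes of -3.47 (SE 0.21, adjusted p = 1.19e-07 from edgeR) and -4.39 (SE 0.27, adjusted p = 4.26e-07), and *Cyp2c40*, of the same subfamily, rose by 2.87 on the log2 scale (SE 0.28, adjusted p = 4.24e-05). *Cyp4a12b*, a near copy of the 20-HETE synthase *Cyp4a12a*, was at 13.7, 10, 12.4 and 6.91 CPM in FXRKO livers and at no more than 1 count in any BCL6LKOFXRKO liver, at least 35-fold lower when set against a floor of 3 counts per library (adjusted p = 1.75e-07 from edgeR). With this gene at that bound the median of the list was the same. Reads shared by near copies in the Cyp2c and Cyp4a families were counted only where they had 1 location, which makes the split between such copies uncertain.

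Of the 5 tested epoxide hydrolases and redox partners (median log2 fold change 0.19), 2 rose and 1 fell, beside 16.2% and 13.5% of all tested genes. *Ephx1*, the microsomal epoxide hydrolase, was at 579, 481, 496 and 485 CPM in FXRKO livers and at 934, 617, 833 and 900.5 CPM in BCL6LKOFXRKO livers. It therefore rose (log2 fold change 0.69, SE 0.14, adjusted p = 0.00300 from edgeR) where *Ephx2* fell. *Cyb5r3*, a reductase of cytochrome b5, rose (0.71, SE 0.16, adjusted p = 0.00426 from edgeR) and *Cyb5b*, a form of cytochrome b5, fell (-0.35, SE 0.11, adjusted p = 0.0335 from edgeR). The last call was lost without any 1 of 6 livers (FXRKO liver 1, 2, 3 or 4 and BCL6LKOFXRKO liver 1 or 3), with adjusted p up to 0.0924. *Por*, which gives electrons to microsomal cytochromes P450, had a log2 fold change of 0.19 (SE 0.23, adjusted p = 0.567 from edgeR) and is named because the cytochromes depend on it.

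The 11 tested genes of arachidonate release and reacylation had 3 lower, 1 higher and a median of 0.07, beside 13.5% lower and 16.2% higher among all tested genes. *Pla2g12a*, a secreted phospholipase A2, fell (-0.65, SE 0.18, adjusted p = 0.0152 from edgeR), as did *Daglb* (-0.43, SE 0.12, adjusted p = 0.0144) and *Mgll* (-0.48, SE 0.13, adjusted p = 0.0160), which make and break down 2-arachidonoylglycerol. *Dagla* rose (1.09, SE 0.32, adjusted p = 0.0216), from a mean of 1.06 to 2.23 CPM. Without FXRKO liver 3 *Dagla*, *Daglb* and *Mgll* lost their calls (adjusted p = 0.0639, 0.0517 and 0.0519 from edgeR), without BCL6LKOFXRKO liver 1 *Dagla* and *Mgll* (0.0688 and 0.0502), and without FXRKO liver 4 *Dagla* (0.0704).

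In the cyclooxygenase branch 4 of 11 tested genes were higher and 3 lower (median 0.53), beside 16.2% and 13.5% of all tested genes. Prostaglandin E synthase *Ptges* rose from 0.896 ± 0.31 to 5.78 ± 1.06 CPM (SD, n = 4; adjusted p = 1.57e-05 from edgeR), carbonyl reductase *Cbr1* from 45.1 ± 3.17 to 126 ± 21.4 CPM (adjusted p = 4.14e-06) and the prostaglandin D synthase *Hpgds* from 1.10 ± 0.80 to 3.4 ± 0.57 CPM (adjusted p = 0.00836). *Hpgd*, which inactivates prostaglandins, fell from 90.6 ± 16.8 to 44.0 ± 4.97 CPM (SD, n = 4; adjusted p = 0.000151 from edgeR), *Ptges3* had a log2 fold change of -0.58 (SE 0.12, adjusted p = 0.00282) and *Ptgr2* one of -0.40 (SE 0.12, adjusted p = 0.0300). The call of *Ptgr2* was lost without FXRKO liver 2, 3 or 4 (adjusted p = 0.0596, 0.100 and 0.0683 from edgeR) or BCL6LKOFXRKO liver 1 or 2 (0.0809 and 0.0641). Of the 11 genes of the lipoxygenase branch, the lipoxygenases *Alox5*, *Alox8*, *Alox12* and *Alox15* and also *Ltc4s*, *Ggt1* and *Dpep2* did not pass the expression filter. The branch as a whole was therefore not measured. Of its 4 tested genes, all 4 had log2 fold changes above 0 (median 0.93), none was called lower and 3 were called higher, beside 16.2% of all tested genes. They were *Lta4h*, which makes leukotriene B4 (0.74, SE 0.10, adjusted p = 0.000204 from edgeR), and the enzymes of cysteinyl leukotriene processing *Ggt5* (1.31, SE 0.29, adjusted p = 0.00444) and *Dpep1* (1.13, SE 0.40, adjusted p = 0.0497), the last of which lost its call without any 1 of 6 livers (FXRKO liver 1, 2, 3 or 4 and BCL6LKOFXRKO liver 1 or 2), with adjusted p up to 0.155, and under 2 other scalings. Of the 14 eicosanoid receptors 3 were tested and none was called by edgeR, DESeq2 or limma voom, nor at an unadjusted p under 0.05 in edgeR.

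**Figure D5:**
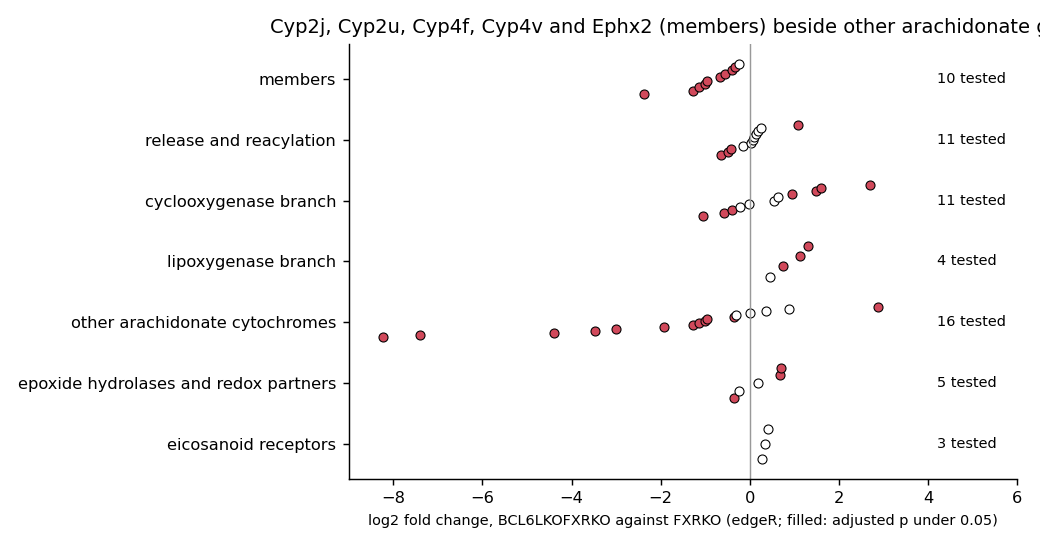
Log2 fold change of BCL6LKOFXRKO against FXRKO livers (x axis) for each tested gene of the set (members) and of 6 other lists of arachidonate metabolism, filled at an adjusted p under 0.05 (edgeR). The 10 members lie to the left of 0, as do 11 called genes of the other arachidonate cytochromes, while the 3 called genes of the lipoxygenase branch lie to the right. The values of genes with almost no reads in 1 group, such as *Cyp4a12b*, depend on the count that edgeR adds.

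At the deposited lengths, the 3 members with the highest mean RPKM over the 8 livers were *Ephx2*, *Cyp4f14* and *Cyp4v3*, with *Cyp2j5* next at 102 against 104 for *Cyp4v3*. Among the other 12330 tested genes, the log2 CPM profiles most like those of these 3 were found by Pearson's r over the 8 livers, as a description. For *Ephx2* they were *Aldh7a1*, *Dcaf8* and *Slc5a2* (r = 0.986, 0.984 and 0.979). For *Cyp4f14* they were the complement genes *C9* and *C8b* and *Cmah* (r = 0.996, 0.990 and 0.989), and for *Cyp4v3* *Car5b*, *Gm21320* and *Gtf2a2* (r = 0.992, 0.990 and 0.984). With each genotype centred on its mean, r for these 9 pairs was between 0.83 and 0.97. The genes were picked by their r over these same livers, so this range follows in part from the choice.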

How the data were processed

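Poly(A) RNA of 4 FXRKO and 4 BCL6LKOFXRKO livers, grouped by the genotype label, was analysed. The authors sequenced stranded libraries as 100 bp single-end reads, aligned them to mm10 with STAR 2.5.2 (per the submitters' processing notes), discarded reads with more than 1 location or over 4 mismatches, and deposited unnormalized HOMER 4.10 counts for 1 transcript of each gene. The stated options name no strand. Totals of 7586241 to 11839503 counts per liver limit the precision of low genes.

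Counts were fitted over all genes in R 4.3.3 with edgeR 4.0.16 (filterByExpr, TMM, robust quasi-likelihood). Genes were called at an adjusted p under 0.05, Benjamini-Hochberg adjusted over 12340 genes. CPM and RPKM use TMM-scaled totals. Ratios within a liver added 0.5 counts and were tested by exact permutation. The script was tested on simulated data with 200 changed genes among 12340. There edgeR recovered 91% of the changed genes, and 8.54% of its calls were false. For DESeq2 13.7% and for limma voom 8.29% of calls were false. This was a single draw with far fewer changed genes than the 1994 higher and 1665 lower genes called in the livers. The shares of false calls therefore cannot be carried over to the real calls. Calls near the threshold may be less certain than 0.05 states, by an amount that was not measured.

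Alternatives were DESeq2 1.42.0, limma 3.58.1 (voom with quality weights), RLE factors, total counts alone, the 50 most counted genes left out of the factors, omission of the filter, a minimum of 10 counts per liver, a log2 fold change beyond 0.5, each liver left out and, for ratios, 5 added counts.

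The members, lists and rules were chosen with earlier results of these data known. Named genes were the members, their family relatives, up to 3 genes per list and direction by smallest adjusted p, the targeted genes, cell type markers and the 3 profiles most like each of 3 members. *Por* and markers named singly were chosen after their values were seen. Coding stretches came from GENCODE M21 and promoters from RefSeq, both on GRCm38. 9 members matched by RefSeq ID and *Cyp4f15* by symbol. No pair of livers agreed within sampling noise.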

Additional observations from a re-analysis of the deposited data

Results flagged for a closer look

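Of 80 groups of 4 livers compared (10 members, 24 other named genes and 6 ratios in each genotype), 5 had 1 liver standing apart by Dixon's ratio of its gap to the range of the group, where chance gives about 4. *Cyp2j5* in FXRKO had a ratio of 0.876, with liver 4 at 481 CPM and the others between 540.2 and 549 CPM. *Ephx1* in FXRKO had a ratio of 0.846, with liver 1 at 579 CPM and the others between 481 and 496 CPM. *Pla2g12a* in BCL6LKOFXRKO had a ratio of 0.912, with liver 4 at 15.4 CPM and the others between 9.16 and 9.71 CPM. *Mgll* in BCL6LKOFXRKO had a ratio of 0.867, with liver 4 at 237 CPM and the others between 164 and 174 CPM. *Hpgds* in BCL6LKOFXRKO had a ratio of 0.896, with liver 2 at 2.55 CPM and the others between 3.60 and 3.73 CPM.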

How the results depend on the processing

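No called result reversed its direction under any alternative that was run. With DESeq2, limma voom, RLE factors, the 50 most counted genes left out or no filter, 9 members were called lower. Over all genes these settings called 1761, 1914, 1667, 1771 and 1738 lower, in that order. Total counts alone also called 9 members lower. That scaling shifts values downward and called 2949 genes lower, so its calls of members carry no further information. The count of members called lower was 7 with at least 10 counts in every liver, where *Cyp2u1* was not tested and *Ephx2* lost its call. It was also 7 with a log2 fold change beyond 0.5. With 1 liver left out it was between 7 and 9, the calls lost being those of *Cyp2j6* and *Ephx2*. With 5 added counts no ratio passed the threshold. With 1 liver left out each of the 6 ratios moved by less than the spread between livers, and *Cyp2j9* to *Cyp2j5* and *Cyp4f15* to *Cyp4f14*, neither of them called, ranged from -0.18 to 0.36 and from -0.05 to 0.20.

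Other counts moved by over 1.5 times. With at least 10 counts in every liver, genes called higher were 6 in place of 11 over the 6 arachidonate lists, 0 in place of 1 for release, 2 in place of 4 for the cyclooxygenase branch and 1 in place of 3 for the lipoxygenase branch. Without a filter, 5 were higher in the lipoxygenase branch and 2 among receptors, which had 0. DESeq2 called 2 other cytochromes higher in place of 1. Total counts alone called 2949 genes lower in place of 1665, and 2 epoxide hydrolases and redox partners lower in place of 1. A log2 fold change beyond 0.5 left 1 lower gene of release in place of 3 and 0 lower epoxide hydrolases and redox partners. With 1 liver left out, the counts ranged from 0 to 1 (release, higher), 1 to 3 (release, lower), 1 to 3 (other cytochromes, higher) and 0 to 1 (epoxide hydrolases and redox partners, lower). Filters change which genes are tested. The cause of the other moves was not tested. No paired analysis was possible because each liver has its own identifier in the labels, the 2 genotypes share none, and the labels do not say that neighbouring identifiers mark a shared litter, batch or day. Genes under about 20 counts per liver, such as *Cyp2u1* in BCL6LKOFXRKO, are limited by depth.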
